A study of Mus musculus with 26 samples.

Results

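The genes of 3 connected protein families were followed through the RNA-seq of fetal reproductive tract mesenchyme: the integrins, the laminins and the nidogens. A gene was a member when its name in both count tables was on a written list of 37 genes, and all 37 were found among the 41442 gene entries of each table. By role the list holds 4 collagen-binding, 3 laminin-binding, 4 RGD-binding, 2 Itga4-type and 4 leukocyte integrin alpha chains, 8 integrin beta chains, 5 laminin alpha, 3 laminin beta and 2 laminin gamma chains, and 2 nidogens. The libraries came from mouse cells carrying a Rosa-Tomato reporter. Gli1-CreER; Rosa-Tomato embryos gave Gli1+ cells of the mesonephros on embryonic days E14.5 and E16.5, from females and males, with 3 RNA-seq libraries in each of the 4 groups. The neonatal uterus, labelled E19.5 and female, gave 3 libraries of Gli1+ cells and 3 of cells marked by Amhr2-Cre; Rosa-Tomato. Dams had received 1 mg of tamoxifen on E12.5 and again on E13.5, so the Gli1-CreER label marks cells that expressed Gli1, a hedgehog target gene, around those days together with their descendants. Labelled cells were sorted after enzymatic dissociation with TrypLE, an enzyme that detaches cells by cutting surface and matrix proteins. The labels tie no replicate number to a litter or an animal, so p-values measure the spread between these libraries, which may be technical.

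Integrins are cell surface receptors made of an alpha and a beta chain, and the pair decides which matrix protein is bound. Laminins are heterotrimers of an alpha, a beta and a gamma chain that polymerise into the core sheet of a basement membrane, and nidogens link that sheet to the network of type IV collagen. In the urogenital tract, basement membranes separate the Wolffian and Müllerian duct epithelia from the surrounding mesenchyme, and they also surround smooth muscle cells and vessels. Mesenchymal cells use other integrins to grip fibrillar collagen and fibronectin.

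Fetal libraries held 23382983 to 64602477 counts, and uterine libraries 28709191 to 37541045. Levels are given as CPM, counts scaled to a common library size, after TMM scaling of each table by itself, and a ± value is the SD with n = 3. The floor of detection was set at 3 counts, or 0.0485 to 0.126 CPM for fetal and 0.0778 to 0.102 CPM for uterine libraries, and covers counting error only. All 10 defining markers of mesenchyme were detected in every group, with summed levels of 36100 to 68800 CPM in the fetal and 27600 to 65000 CPM in the uterine libraries. Markers of other cells were low in the fetal libraries by comparison, at most 64.3 CPM summed over 12 epithelial, 133 over 10 endothelial and 87.6 over 10 leukocyte genes. Sums over neural, gonad somatic and germ cell markers reached at most 39.1, 72 and 3.12 CPM in a fetal library. Smooth muscle and pericyte markers were the exception, with 432 to 3140 CPM over 10 genes. The sorted lineage's own Gli1 had group means of 184, 228, 50.7 and 208 CPM in E14.5 females, E14.5 males, E16.5 females and E16.5 males, and 17.9 CPM in uterine Gli1+ cells, while Amhr2 had 11.1 CPM in uterine Amhr2+ cells. Gli1 and Amhr2 together summed to 22.12, 19.52 and 23.29 CPM in the uterine Amhr2+ libraries. In the uterine Gli1+ libraries that sum was 19.93, 26.41 and 19.63 CPM. Each uterine population thus also held transcripts of the other lineage gene, and in Amhr2+ cells Gli1 made up much of the sum. One library stood apart: E14.5 female replicate 3 held 987 CPM of erythroid transcripts, where every other fetal library held at most 56.9 CPM.

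The order of the members was set by level per length, in CPM per kb of merged exons. Itgb1, the beta chain shared by most integrins of connective tissue, had the highest mean in all 6 groups, from 161.4 ± 8.63 CPM per kb in E16.5 females to 212.7 ± 10.3 in E16.5 males. Nid1 and Nid2 followed in the fetal groups. In E14.5 females the order of level per length was Itgb1 at 163 ± 4.66, Nid1 at 120.4 ± 5.72, Nid2 at 87.8 ± 2.46, Itga8 at 65.8 ± 1.40, Lamb1 at 57.8 ± 0.484 and Lamc1 at 51.1 ± 0.957 CPM per kb. Those 6 were separated by more than their spread. In E16.5 females, Itgb1, Nid2 at 150.5 ± 7.55 and Nid1 at 145 ± 11 CPM per kb lay within their spread of each other. Itga8, a receptor for nephronectin, had the highest mean per length of any integrin alpha chain in each group. Its level per length in E16.5 males, 28.4 ± 1.78 CPM per kb, lay within the spread of Itga5, the fibronectin receptor chain, at 26.2 ± 2.1. At the other end, Itgam, Itgax, Itgb2 and Itgb6 were too low to be tested in any comparison.

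Accessible chromatin was read from a single list of 71040 ATAC-seq peaks with no sample column, so peaks could not be compared between groups. A peak lay within 1 kb of the gene start for 27 of 37 members. All 27 were among the 33 members tested in the fetal table, a share of 81.8%, against 79.0% of the 17836 tested genes with coordinates. The 10 members without such a peak were Itga2b, Itgae, Itgal, Itgam, Itgax, Itgb2, Itgb4, Itgb6, Itgb7 and Nid1. Most of these 10 had low transcript levels in every group. Nid1, among the most abundant members in all of them, had no peak within 5 kb of its start either. Peaks inside the gene were most numerous in Itga9, with 29, and Lama2, with 23. RefSeq (GRCm38.p6) held promoter sequences for 24 members, and a peak touched the 250 bases before the RefSeq start in 16 of them. For Itga9 and Lamb3 that start lay inside the gene, 105002 and 94269 bases from the gene start used above. Neither window held a peak, although both members had a peak within 1 kb of the gene start. The windows of 3 members with large differences are shown because a peak covers part or all of each, and they were chosen after the values were seen. Each is written 5′ to 3′ on the strand of its gene, and capitals mark a motif match.
Itga4 promoter, chr2:79255176-79255425, plus strand: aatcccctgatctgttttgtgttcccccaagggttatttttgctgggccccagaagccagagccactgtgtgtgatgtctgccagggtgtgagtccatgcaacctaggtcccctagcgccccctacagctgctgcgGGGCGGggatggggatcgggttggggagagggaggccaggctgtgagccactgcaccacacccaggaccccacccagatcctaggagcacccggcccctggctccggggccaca
Itga1 promoter, chr13:115101965-115102214, minus strand: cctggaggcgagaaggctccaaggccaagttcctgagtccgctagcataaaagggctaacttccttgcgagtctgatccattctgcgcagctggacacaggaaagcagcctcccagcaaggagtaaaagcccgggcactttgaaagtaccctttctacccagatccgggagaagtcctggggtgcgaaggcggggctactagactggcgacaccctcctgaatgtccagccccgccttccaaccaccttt
Lama2 promoter, chr10:27616943-27617192, minus strand: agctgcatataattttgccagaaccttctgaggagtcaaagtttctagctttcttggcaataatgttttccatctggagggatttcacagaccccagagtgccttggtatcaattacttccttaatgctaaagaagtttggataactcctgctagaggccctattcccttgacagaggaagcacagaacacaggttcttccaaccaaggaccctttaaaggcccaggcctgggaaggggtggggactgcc
Peaks covered 181 bases of the Itga4 window, 206 of the Itga1 window and all 250 of the Lama2 window. In GENCODE vM21 the Itga4 and Itga1 windows hold no annotated gene, and the Lama2 window lies inside an intron of a longer Lama2 transcript. Itga4 holds 1 GC box (GGGCGG, searched on both strands). A GC box was found in 9 of the 24 member windows and in 32.7% of 32851 RefSeq promoters. The 3 printed windows held no CCAAT box (CCAAT, present in 4 of 24 and in 33.8% of all promoters), no TATA box (TATAAA, in 0 of 24 and 12.4%) and no GLI motif (GACCACCCA, in 0 of 24 and 0.225%). A match describes letters only.

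Between the sexes at E14.5, 9 of the 33 tested members passed an adjusted p of 0.05 by edgeR's quasi-likelihood test, where 6.28% of all 17858 genes did. Higher in females were 3 members (background 2.59%): Itga8, Lama1 and Itgb5, with log2 fold changes of 0.53, 0.53 and 0.34 (edgeR adjusted p 0.00136, 0.00654 and 0.00562). Higher in males were 6 (background 3.69%): Itga4, Lama3, Lama2, Lamc3, Itgb8 and Lamb2. None of the 9 changed 2-fold, as 1.49% of all genes did. Since the cells were measured in bulk, fewer cells of a type and less RNA per cell cannot be told apart in this or any later difference. The median log2 fold change was 0.07 over the members and -0.01 over all genes. The calls of Itga4, Itgb8 and Lamb2 were lost in 6, 5 and 6 of 12 alternatives, at adjusted p of up to 0.0901, 0.144 and 0.185. These were fits without a single library and, for Itga4 and Lamb2, also the fit without the filter on low counts.

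At E16.5 the sexes differed in more members. Of the 33 tested, 21 passed, against 27.3% of all genes, with 9 higher in females (background 13.2%) and 12 higher in males (background 14.1%). The female-higher members were Itga7, Itga11, Lama3, Nid2, Itga8, Lama4, Itga2b, Itgb5 and Lamb1. The male-higher ones were Itga4, Lamc3, Lama2, Itgb8, Itga9, Itga1, Itga3, Itga6, Itgb1, Itgav, Itga5 and Lamb2. Among them 5 differed at least 2-fold, as 7.02% of all genes did: Itga4, Lamc3, Lama2 and Itgb8, higher in males, and Itga7, higher in females. The median log2 fold change was -0.09 over the members and 0.01 over all genes.

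**Figure D1:**
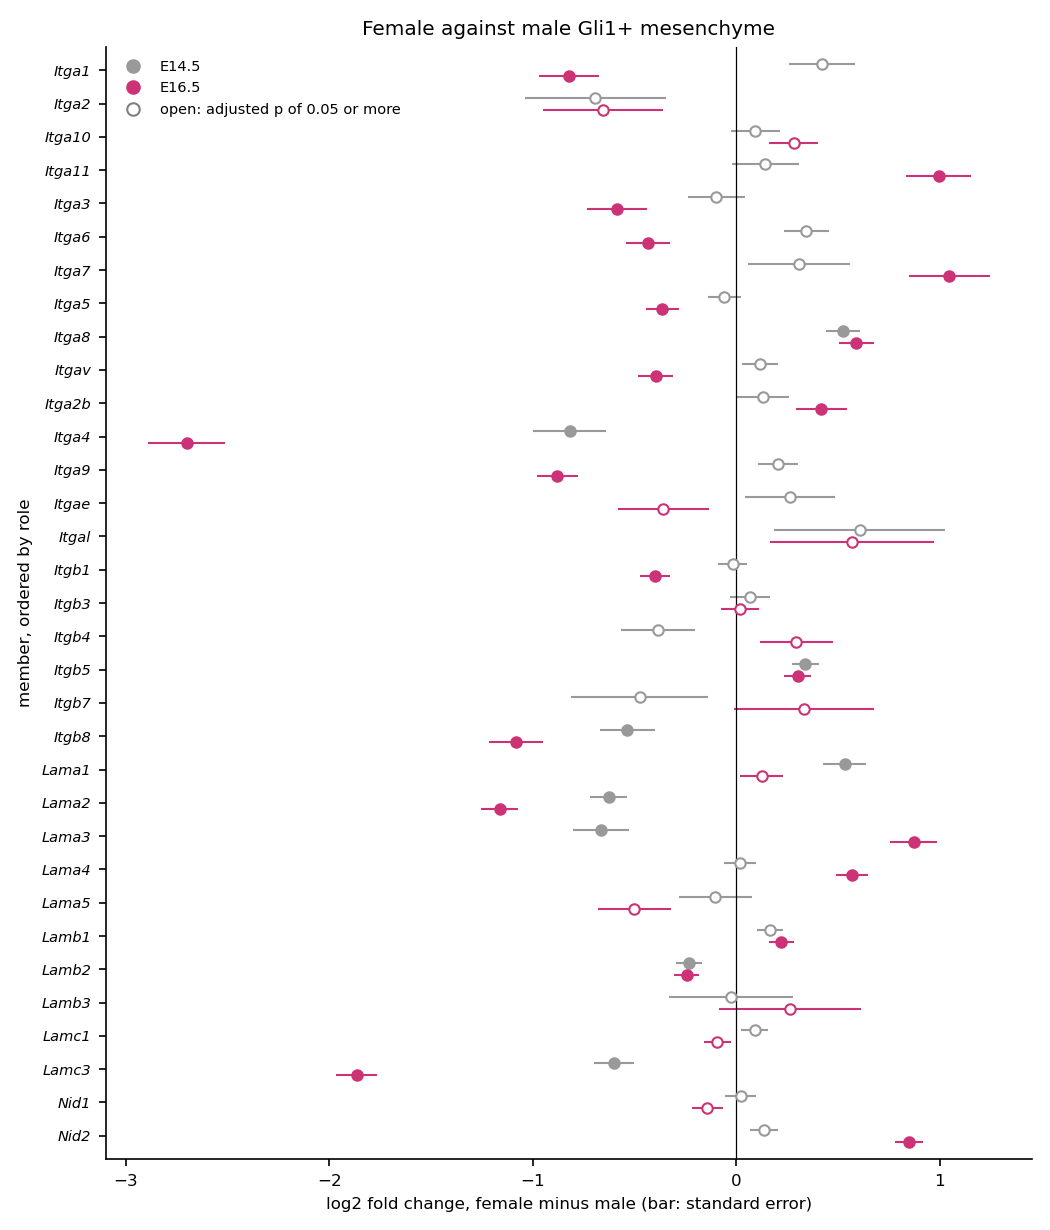
Log2 fold change, female minus male, of the 33 tested members at E14.5 (grey) and E16.5 (pink), ordered by role, with the standard error as a bar and open points for an adjusted p of 0.05 or more. Itga4 lies farthest to the left, at -2.70 at E16.5, and Lama3 moves from -0.67 at E14.5 to 0.87 at E16.5.

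The sex by age interaction, which tests the E16.5 sex difference against that of E14.5, passed for 12 of 33 members, against 10% of all genes. It was positive, towards higher in females, for 4 (background 4.66%): Lama3, Itga11, Nid2 and Lama4. At least 2-fold were 5 of the 12 (background 3.62%). The value was negative for 8 (background 5.36%): Itga4, Lamc3, Itga1, Itga9, Itga6, Lama2, Itgav and Itgb1. Lama3 was called in opposite directions at the 2 ages.

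From E14.5 to E16.5, 21 members changed in females, against 39.6% of all genes, and 20 changed in males, against 23.3%. In females 11 rose (background 21%) and 10 fell (background 18.6%). In males 13 rose (background 13.1%) and 7 fell (background 10.2%). Scaled by library size alone, the male split of members was 12 up and 9 down, and that of all genes turned from 2340 up and 1828 down to 1847 up and 2641 down. In females the split of all genes turned as well, from 3746 up and 3322 down to 3130 up and 3924 down, with 11 members up and 10 down under both scalings. Rises of at least 2-fold in females were those of Lama3, Itga7 and Lama4, and falls of that size were those of Itga4, Itga9, Itga3, Lamb3, Lamc3 and Lama1, 9 in all (background 8.97%). In males the 5 changes of that size (background 6.17%) were rises of Itga1 and Itga7 and falls of Lamb3, Itga3 and Itgb7. The medians were -0.01 in females, against 0 over all genes, and 0.06 in males, against -0.01. The 2 age differences share their libraries with the 2 sex differences and are not independent of them.

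**Figure D2:**
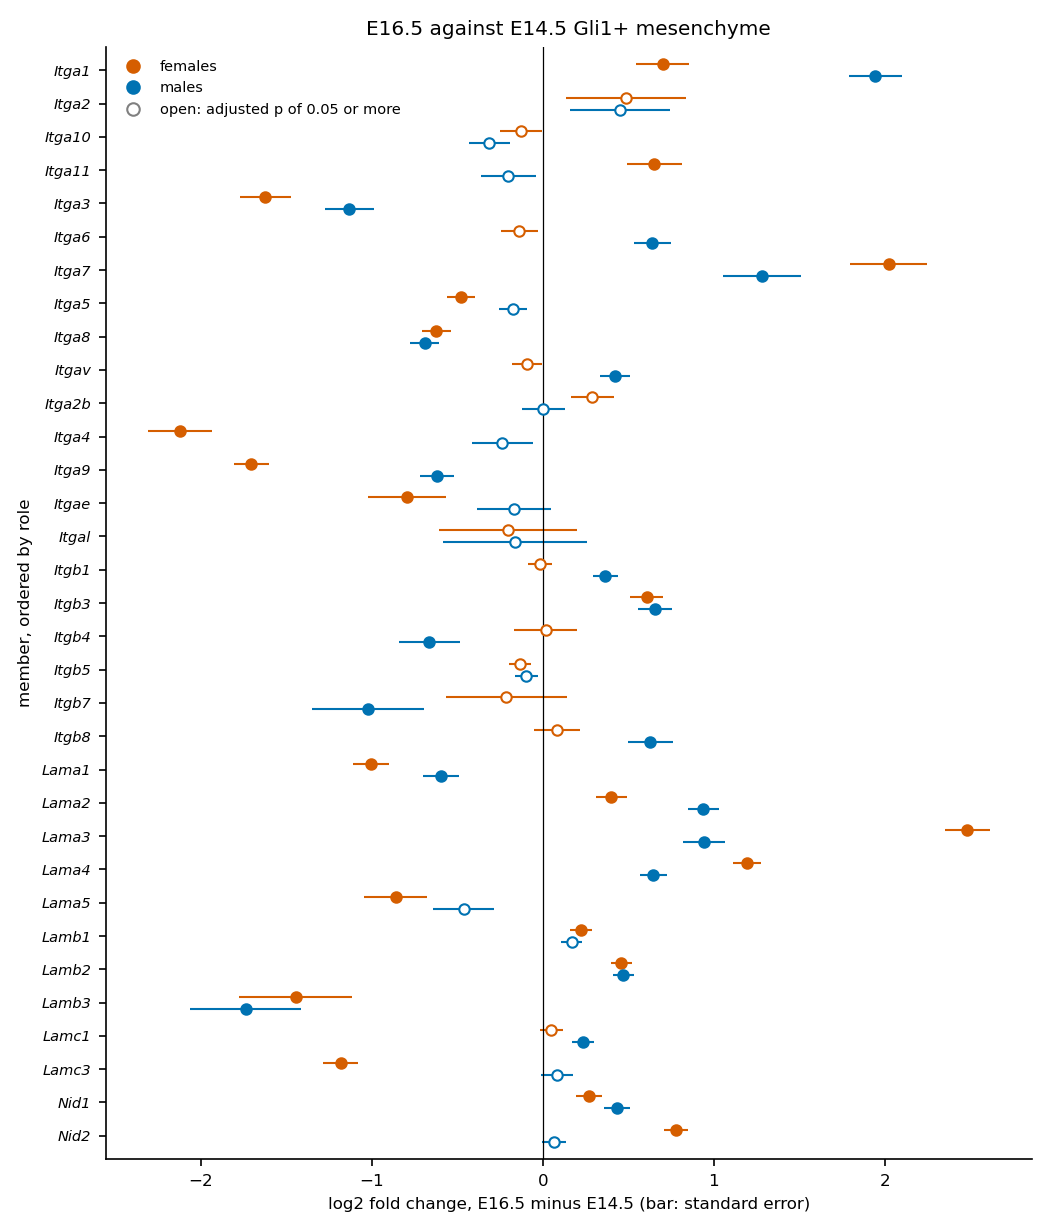
Log2 fold change, E16.5 minus E14.5, of the 33 tested members in females (orange) and males (blue), with the standard error as a bar and open points for an adjusted p of 0.05 or more. Lama3 rose most in females, by 2.48, and Itga1 rose most in males, by 1.94.

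In the uterus, 13 of 31 tested members differed between Amhr2+ and Gli1+ cells, against 23.9% of 16195 genes. Higher in Amhr2+ cells were 4 (background 10.1%): Itga6, Lama5, Itga9 and Itga2. Lower were 9 (background 13.7%): Lama2, Itga11, Lama4, Lamc1, Lamb1, Itgb8, Nid2, Lamb2 and Itga8. Of these, Lama2 and Itga11 differed at least 2-fold (background 6.53%). The median was -0.15 over the members and 0 over all genes. Without Amhr2+ replicate 1 the count was 8, and the calls of Itga2, Itga8, Itgb8, Lamb2 and Nid2 were lost. That fit called 1949 of 16476 genes, where the main fit called 3866 of 16195. Scaled by library size alone 5 were higher and 6 lower, and the split of all genes turned from 1642 higher and 2224 lower to 2849 higher and 1640 lower. The summed mesenchyme markers were 27600 to 29700 CPM in Amhr2+ and 57700 to 65000 CPM in Gli1+ cells. Their part in these differences was not tested.

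**Figure D3:**
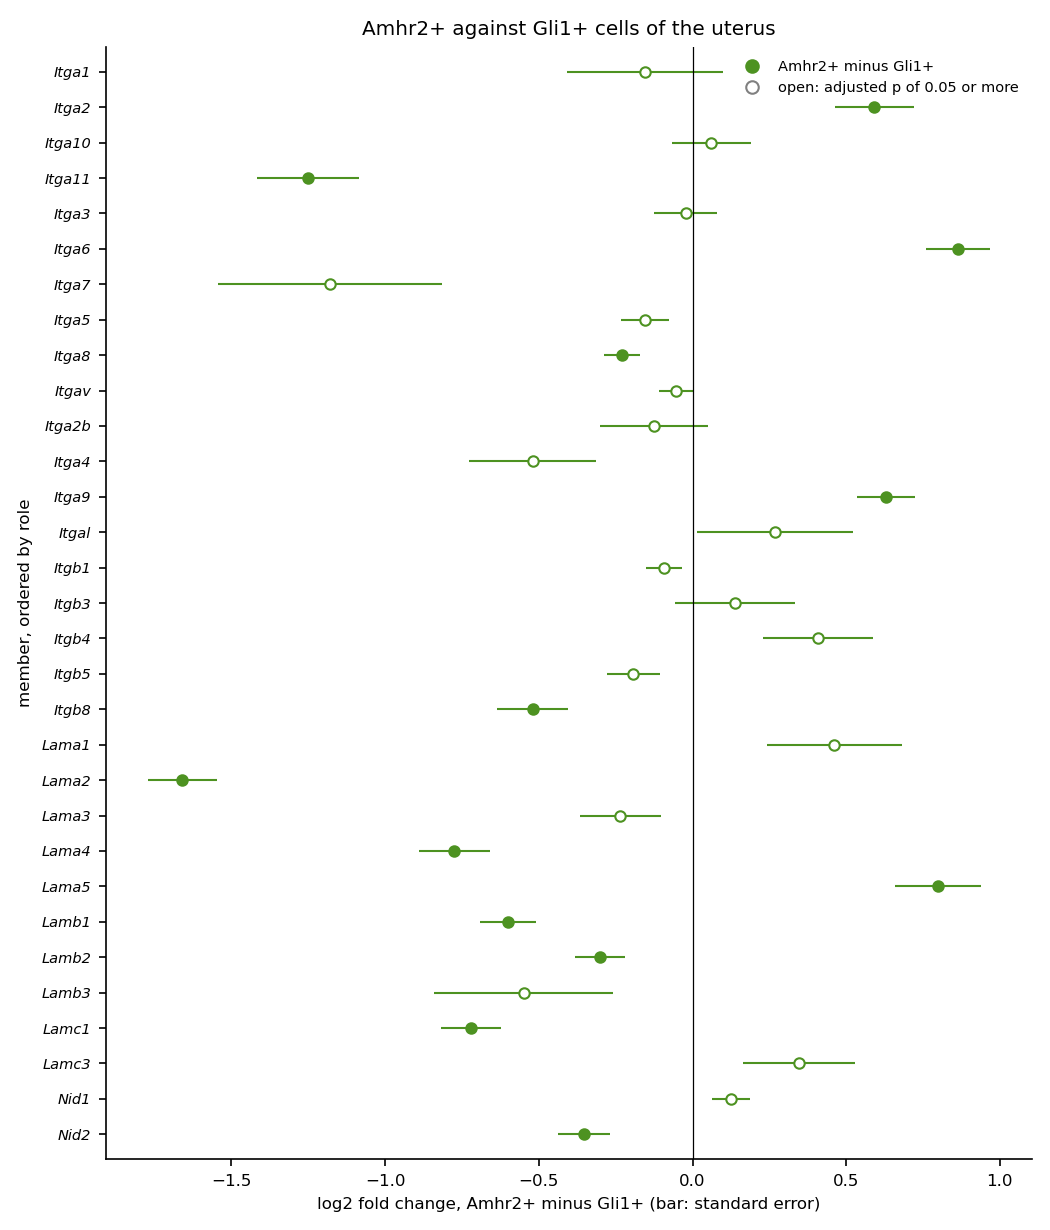
Log2 fold change, Amhr2+ minus Gli1+ cells of the uterus, of the 31 tested members, with the standard error as a bar and open points for an adjusted p of 0.05 or more. Lama2 lies farthest to the left, at -1.66, and Itga6 farthest to the right, at 0.86.

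The collagen-binding alpha chains Itga1, Itga2, Itga10 and Itga11 all pair with Itgb1. Itga1, which binds type IV and fibrillar collagens and is typical of smooth muscle, lies on chromosome 13 at 114953096 to 115101964 (mm10) and overlaps Pelo and 2 clone-named genes. It measured 13.6, 10.4 and 11.1 CPM in E14.5 females and 9.47, 8.36 and 8.53 CPM in E14.5 males. Levels at E16.5 were 19.6, 19.6 and 17.9 CPM in females and 24.6, 40.5 and 35.9 CPM in males. Every E16.5 library lay above every E14.5 library, and the E16.5 sexes did not overlap. The rise with age was 0.70 in females (SE 0.155, edgeR adjusted p 0.00262) and 1.94 in males (SE 0.155, 4.12e-07) on the log2 scale. The sex difference was 0.42 at E14.5 (adjusted p 0.16) and -0.82 at E16.5 (SE 0.147, adjusted p 0.000743), and the interaction was -1.24 (SE 0.218, adjusted p 0.00171). The E14.5 sexes did not overlap, and their difference passed in fits of the compared libraries only, with and without a replicate block, at adjusted p down to 0.0135. In the uterus Itga1 measured 69.5, 80.5 and 39.3 CPM in Amhr2+ and 76.2, 73.4 and 61.4 CPM in Gli1+ cells, which overlapped.

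Smooth muscle and pericyte markers moved with Itga1 with age and between the sexes at E16.5, but stood in the opposite order between the sexes at E14.5. Their sum over 10 genes, none at 0, was 432 to 457 CPM in E14.5 females, 744 to 1020 in E14.5 males, 656 to 734 in females at E16.5 and 1940 to 3140 in E16.5 males. E16.5 male replicate 1 had the lowest sum of its group, 1937 CPM, and the lowest Itga1. E14.5 male replicate 1 also had the lowest sum of its group, 744.1 CPM, but the highest Itga1. Uterine Amhr2+ replicate 3 had the lowest sum of its group, 1342 CPM, and also the lowest Itga1. Uterine Gli1+ replicate 3 had the highest sum of its group, 2633 CPM, but the lowest Itga1. The part of smooth muscle cells in the Itga1 differences was not tested.

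Itga11, a receptor for fibrillar collagen in mesenchyme, lies on chromosome 9 at 62677826 to 62783982. It measured 19.8, 20.1 and 20.8 CPM in E14.5 females, 18.2, 16.6 and 20.1 in E14.5 males, 33.5, 34.6 and 27.3 in females at E16.5 and 19.54, 17.3 and 11.3 in E16.5 males. E16.5 females stood above all other fetal libraries, and the 2 E14.5 groups overlapped. At E16.5 it was higher in females by 1.00 on the log2 scale (SE 0.160, edgeR adjusted p 0.00038), and it rose with age in females by 0.65 (SE 0.160, adjusted p 0.00588). The interaction of 0.85 (adjusted p 0.029) lost its call when single libraries were left out, at adjusted p of up to 0.0815. It was also lost without the filter on low counts. Uterine levels were 2.23, 1.996 and 2.41 CPM in Amhr2+ and 5.42, 5.73 and 4.61 CPM in Gli1+ cells, and the log2 fold change was -1.25 (SE 0.166, adjusted p 0.00129).

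Per length, Itga11 made up 63.8% ± 1.22 of the summed collagen-binding alpha chain level in E14.5 females, 63.9% ± 1.77 in E14.5 males, 70.9% ± 3.20 in females at E16.5 and 49.7% ± 9.36 in males of that age. The share of Itga1 per length was 11.8% ± 0.404 in females at E16.5 and 29.4% ± 7.86 in males. In the uterus Itga1 led with 49.7% ± 10.2 in Amhr2+ and 52.5% ± 2.97 in Gli1+ cells. These shares depend on the merged exon lengths, 18.6 kb for Itga1 and 5.13 kb for Itga11. Without division by length, Itga1 stood above Itga11 in E16.5 males, at 33.66 ± 8.22 against 16.02 ± 4.27 CPM. In every other group the leading collagen-binding chain was the same without that division. Levels were not tested between the tables, whose library kits differ. Itga10, a cartilage collagen receptor chain, kept group means between 6.06 and 8.40 CPM and passed in no comparison. Itga2, an epithelial and platelet collagen receptor chain, had fetal means of at most 0.883 CPM. In the uterus it measured 8.91 ± 0.448 CPM in Amhr2+ and 5.91 ± 0.619 CPM in Gli1+ cells, a log2 fold change of 0.59 (edgeR adjusted p 0.0126), a call lost without Amhr2+ replicate 1 (adjusted p 0.0512).

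Itga3, Itga6 and Itga7 make the laminin receptors. Itga3, on chromosome 11 at 95044474 to 95076801, is best known from epithelia and podocytes. It measured 27.2, 30.7 and 35.7 CPM in E14.5 females and 36.4, 32.5 and 31.4 CPM in E14.5 males. By E16.5 the levels were 9.43, 12.2 and 8.74 CPM in females and 18.3, 14.6 and 12.9 CPM in males. The ages did not overlap in either sex. With age the log2 fold change was -1.62 in females (SE 0.149, edgeR adjusted p 1.15e-06), and -1.13 in males (SE 0.143, adjusted p 4.09e-05). The sexes overlapped at E14.5, and at E16.5 females were lower: the log2 fold change was -0.59 (SE 0.148, adjusted p 0.00858). In the uterus Itga3 measured 21.4, 19.1 and 19.4 CPM in Amhr2+ and 18.6, 22.8 and 19.4 CPM in Gli1+ cells, with overlap. Mesothelial markers moved with Itga3 at E16.5: the sum of 5 markers, none at 0, was 22.8 to 57.5 CPM in females and 61 to 80.9 CPM in males. Epithelial sums over 12 markers did so too, at 28.3 to 38.3 CPM in females and 39.3 to 48.5 CPM in males. The highest female library for Itga3 and for both sums was replicate 2. At E14.5 the mesothelial sums were also lower in females, 53 to 64.9 against 75.3 to 93 CPM, while Itga3 overlapped between the sexes. Epithelial sums at E14.5 were likewise lower in females, 38.4 to 43.8 against 54.3 to 64.3 CPM. The part of mesothelial and epithelial cells was not tested.

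Itga7, the laminin receptor chain of skeletal and smooth muscle, lies on chromosome 10 at 128933818 to 128958282 and overlaps Mettl7b and a model gene. It stood at 1.00, 1.35 and 1.92 CPM in E14.5 females and at 1.304, 1.24 and 0.956 CPM in E14.5 males. E16.5 females had 5.05, 6.48 and 5.81 CPM and E16.5 males 2.83, 3.31 and 2.29 CPM. Itga7 rose in both sexes and was higher in females at E16.5, with no overlap in any of the 3 comparisons. The log2 fold changes were 2.02 with age in females (SE 0.223, edgeR adjusted p 4.46e-06), 1.28 with age in males (SE 0.226, 0.000611) and 1.05 between the sexes at E16.5 (SE 0.200, 0.00103). The smooth muscle sums given beside Itga1 were also higher at E16.5 than at E14.5 within each sex, but between the sexes at E16.5 they stood in the opposite order to Itga7. Skeletal muscle markers summed to at most 0.374 CPM over 4 genes in any fetal library.

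In the uterus Itga7 measured 8.58, 9.60 and 4.68 CPM in Amhr2+ and 15.9, 25.2 and 10.98 CPM in Gli1+ cells. The groups did not overlap, but the log2 fold change of -1.18 (SE 0.365) missed the threshold (edgeR adjusted p 0.0584). It passed without Gli1+ replicate 3, with DESeq2 and with a replicate block, at adjusted p down to 0.000268. The smooth muscle sums were likewise lower in Amhr2+ (1340 to 2170 CPM) than in Gli1+ cells (2560 to 2630 CPM), and Amhr2+ replicate 3 was lowest of its group in both. Gli1+ replicate 3 had the highest sum of its group, 2633 CPM, but the lowest Itga7. The part of smooth muscle cells in the Itga7 differences was not tested. Per length, Itga7 rose from 2.55% ± 0.555 of the laminin-binding alpha chains in E14.5 females to 20.1% ± 1.53 in E16.5 females, and from 2.08% ± 0.240 to 7.77% ± 0.908 in males. Itga6, which also joins Itgb4 in hemidesmosomes, stood at 9.61 ± 0.424 CPM in E16.5 females and at 13.0 ± 1.83 CPM in their male counterparts, for a log2 fold change of -0.43 (adjusted p 0.0064). At E14.5 the sexes did not overlap, and the log2 fold change of 0.34 missed the threshold (adjusted p 0.0843). That difference passed with DESeq2 and in fits of the compared libraries only, with and without a replicate block, at adjusted p down to 0.0335. Itga6 rose with age in males by 0.64 (adjusted p 0.000402), and its interaction was -0.78 (adjusted p 0.00349). In the uterus it was higher in Amhr2+ cells, 31.7 ± 1.66 against 17.4 ± 2.236 CPM, by 0.86 (adjusted p 0.000762).

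The RGD-binding chains Itga5, Itga8, Itgav and Itga2b recognise a short peptide motif in fibronectin, nephronectin and related ligands. Itga8, on chromosome 2 at 12106632 to 12301922 and overlapping 2 clone-named genes, is needed for kidney budding. It was higher in females at both ages: 485 ± 10.3 against 337 ± 48.6 CPM at E14.5 and 315 ± 10.5 against 209 ± 13.1 CPM at E16.5. The log2 fold changes were 0.53 and 0.59 (edgeR adjusted p 0.00136 and 7.64e-05), and the interaction was 0.07 (adjusted p 0.803, SE 0.119). Itga8 fell with age in both sexes, with log2 fold changes of -0.62 and -0.69 (adjusted p 3.61e-05 and 1.99e-05). In the uterus its log2 fold change was -0.23 (adjusted p 0.0259), a call lost without Amhr2+ replicate 1, Amhr2+ replicate 2 or Gli1+ replicate 1, or when scaled by library size alone, at adjusted p of up to 0.137.

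Itga5 stood at 100.5 ± 5.80 CPM in E16.5 females and at 129 ± 10.4 CPM in their male counterparts, for a log2 fold change of -0.36 (edgeR adjusted p 0.00301), and fell with age in females (-0.48, adjusted p 0.000249). Itgav, a chain shared by receptors that activate latent TGF-beta, measured 117 ± 5.88 and 154 ± 14.3 CPM in the E16.5 sexes, a log2 fold change of -0.40 (adjusted p 0.00304). It rose with age in males by 0.42 (adjusted p 0.00226) and had an interaction of -0.51 (adjusted p 0.0133). Neither Itga5 nor Itgav passed in the uterus. Itga2b, the platelet fibrinogen receptor chain, had fetal means of 3.86 to 5.16 CPM and was higher in E16.5 females by 0.42 (adjusted p 0.0202). That call was lost without E16.5 female replicate 1 or 2, without E16.5 male replicate 3 or without the filter on low counts, at adjusted p of up to 0.0788. Megakaryocyte and platelet markers summed to at most 4.71 CPM over 8 genes in a fetal library. At E16.5 these sums overlapped between the sexes, at 2.25 to 3.44 CPM in females and 1.07 to 3.17 CPM in males, with Ppbp at 0 in every E16.5 male library.

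Itga4 binds fibronectin and the cell surface protein Vcam1, and showed the largest sex difference of all members. It lies on chromosome 2 at 79255500 to 79333123 and overlaps Cerkl on the other strand. At E14.5 it measured 122, 97.7 and 94.5 CPM in females and 205, 172 and 178 CPM in males. At E16.5 the levels were 26.3, 25.1 and 20.9 CPM in females and 115, 197 and 159 CPM in males. The sexes overlapped at neither age, and in males the ages overlapped. The sex difference was -0.82 at E14.5 (SE 0.179, edgeR adjusted p 0.0213) and -2.70 at E16.5 (SE 0.191, adjusted p 1.53e-06), a 6.51-fold difference. The E14.5 call was lost in 6 of 12 alternatives, at adjusted p of up to 0.0901. The interaction was -1.88 (SE 0.256, adjusted p 0.000795). Itga4 fell in females, where its log2 fold change was -2.12 (SE 0.189, adjusted p 8.27e-06), and had -0.24 in males (adjusted p 0.381). E16.5 male replicate 1, with the lowest smooth muscle sum of its group, also had the lowest Itga4. E14.5 male replicate 1 likewise had the lowest sum of its group, 744.1 CPM, but the highest Itga4. The part of smooth muscle cells in the Itga4 differences was not tested. Left-out libraries gave E16.5 values of -2.88 to -2.51.

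In the uterus Itga4 measured 10.9, 12.2 and 9.97 CPM in Amhr2+ and 17.8, 19.0 and 10.7 CPM in Gli1+ cells. Its uterine log2 fold change of -0.52 missed the threshold (edgeR adjusted p 0.106), though it passed without Gli1+ replicate 3, with DESeq2 and with a replicate block, at adjusted p down to 0.00618. Its ligand gene Vcam1 moved the other way between the fetal sexes. Vcam1 stood at 39.2 ± 0.0522 CPM in E16.5 females and at 10.8 ± 1.07 CPM in their male counterparts, for a log2 fold change of 1.86 (adjusted p 2.23e-09), and 10.7 ± 0.831 against 5.37 ± 0.629 CPM at E14.5 (0.99, adjusted p 3.94e-05).

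Itga9, a receptor chain for tenascin C, lies on chromosome 9 at 118606690 to 118901003 and overlaps a clone-named gene. In E14.5 females it measured 268, 291 and 281 CPM, and in E14.5 males 272, 213 and 244 CPM. E16.5 females had 91.2, 94.1 and 72.7 CPM and E16.5 males 154, 171 and 149.7 CPM. All 6 E16.5 libraries were below all 6 E14.5 libraries, and the sexes overlapped at E14.5 but not at E16.5. With age the log2 fold change was -1.70 in females (SE 0.102, edgeR adjusted p 7.64e-09) and -0.62 in males (SE 0.0992, 0.00028). The sex difference was 0.21 at E14.5 (adjusted p 0.276) and -0.88 at E16.5 (SE 0.1, adjusted p 7.98e-06), with an interaction of -1.09 (adjusted p 0.000119). In the uterus Itga9 measured 165, 166 and 183 CPM in Amhr2+ and 127, 105 and 100.3 CPM in Gli1+ cells, and the log2 fold change was 0.63 (SE 0.0940, adjusted p 0.00228). Tnc, which encodes tenascin C, was lower in females at both ages, with -1.51 at E14.5 (adjusted p 9.31e-07) and -0.71 at E16.5 (0.000104), and its uterine log2 fold change was -0.99 (0.000187).

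The leukocyte chains were low, and Itgam and Itgax were near or under the floor of 3 counts. Itgal, part of the lymphocyte receptor for ICAM proteins, had group means of 0.481 to 1.01 CPM and passed in no comparison. Itgae, which binds E-cadherin, had fetal means of 0.753 to 1.305 CPM and fell with age in females (-0.79, edgeR adjusted p 0.0127), a call lost without E16.5 female replicate 1 (adjusted p 0.0566). Itgam and Itgax reached group means of at most 0.132 and 0.0251 CPM. Itgax had 0 counts in every E14.5 and E16.5 male library and in every uterine Amhr2+ library, and Itgam in every E14.5 male library. Their partner Itgb2 reached at most 0.224 CPM. Summed leukocyte markers were 35 to 87.6 CPM over 10 genes in E16.5 females and 16.2 to 50.3 CPM in E16.5 males. Cd68 made up most of that sum, and Ptprc reached a mean of at most 0.623 CPM.

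Itgb1 was higher in E16.5 males, 868 ± 41.9 against 658 ± 35.2 CPM, a log2 fold change of -0.40 (edgeR adjusted p 0.000593), and rose with age in males by 0.37 (adjusted p 0.0014). The E14.5 levels were 665 ± 19.0 in females and 673 ± 58.9 CPM in males, a log2 fold change of -0.02. Its interaction of -0.38 (adjusted p 0.0236) lost its call when single libraries were left out, at adjusted p of up to 0.0728. Itgb5, an Itgav partner that binds vitronectin, was higher in females at both ages, by 0.34 and 0.30 (adjusted p 0.00562 and 0.00292). Itgb3, another Itgav partner, rose with age in both sexes, by 0.61 in females and 0.66 in males (adjusted p 0.000188 and 0.000122). Itgb3 did not pass between the sexes at either age.

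Itgb8 pairs with Itgav in a receptor that activates latent TGF-beta, and lies on chromosome 12 at 119158022 to 119238802. It measured 23.4, 21.9 and 22.1 CPM in E14.5 females and 33.6, 28.0 and 36.3 CPM in E14.5 males. E16.5 females had 26.6, 23 and 21.9 CPM and E16.5 males 39.2, 57.9 and 54.3 CPM. The sexes overlapped at neither age. Between the sexes it differed by a log2 fold change of -0.54 at E14.5 (SE 0.135, edgeR adjusted p 0.0286) and -1.08 at E16.5 (SE 0.132, adjusted p 2.42e-05), and the rise with age in males was 0.63 (SE 0.130, adjusted p 0.00271). The E14.5 call was lost in 5 of 12 alternatives, each a fit without a single library, at adjusted p of up to 0.144. The interaction of -0.55 did not pass (adjusted p 0.0857), but did without E16.5 male replicate 1 or with DESeq2. In the uterus it measured 9.49, 9.82 and 11.9 CPM in Amhr2+ and 14.1, 15.2 and 15.4 CPM in Gli1+ cells, and the log2 fold change was -0.52 (SE 0.116, adjusted p 0.014). That call was lost without Amhr2+ replicate 1 or 2, at adjusted p of up to 0.0791.

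The other beta chains were low. Itgb4, the hemidesmosome chain, had fetal means of 2.06 to 3.23 CPM and fell with age in males (-0.66, edgeR adjusted p 0.0127), a call lost without E14.5 male replicate 2 and in fits of the compared libraries only, with and without a replicate block, at adjusted p of up to 0.0762. Itgb7, a lymphocyte chain, fell in males from 0.720 ± 0.154 to 0.342 ± 0.110 CPM (-1.02, adjusted p 0.0334) and lost its call in 7 of 12 alternatives, among them leaving out replicate 1 or 2 of the males at either age, at adjusted p of up to 0.142. Itgb6, an epithelial chain, had a mean of at most 0.0806 CPM in any group.

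**Figure D4:**
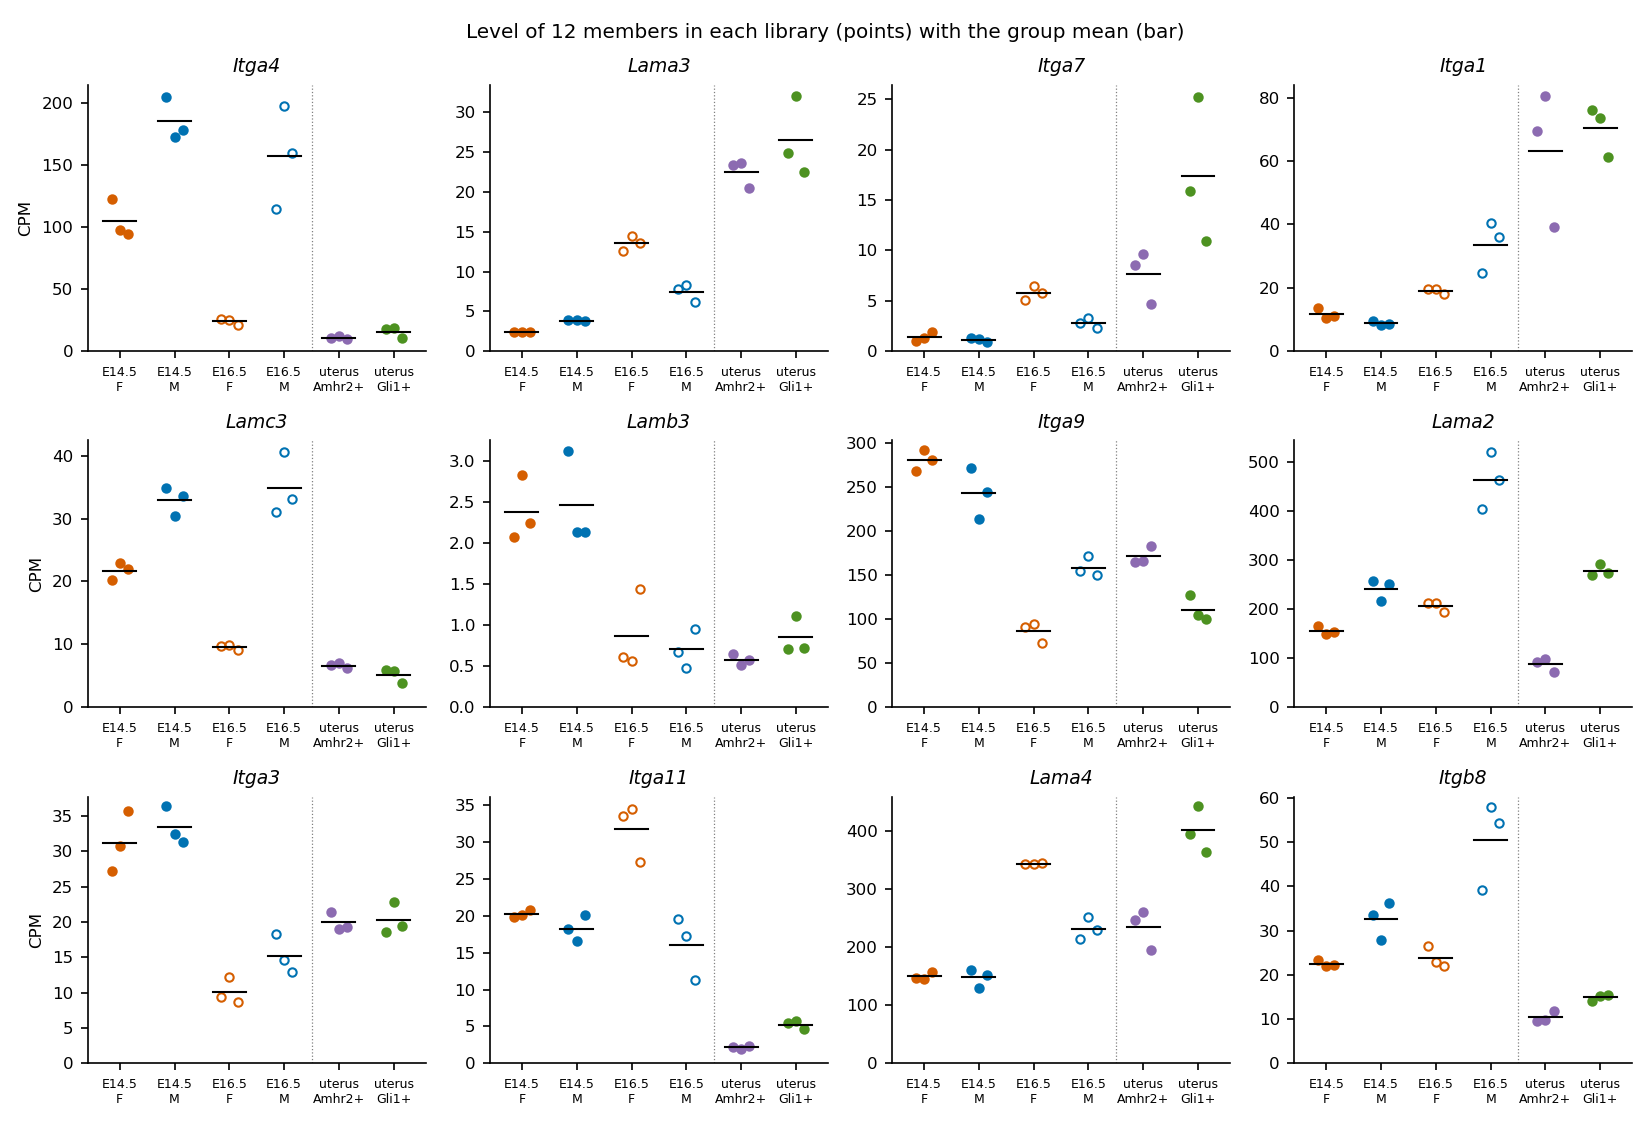
Level in CPM of the 12 members given library by library, 1 point per library and a bar for the group mean, in 4 fetal groups (left of the dotted line, F female, M male) and 2 uterine groups scaled by themselves. Itga4 and Lamc3 are low in E16.5 females, and Lama3 and Lama4 are highest there among the fetal groups.

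The laminin alpha chains decide which receptors a laminin binds. All 5 passed with age in females, where 39.6% of all genes did. Lama1, the main alpha chain of early embryonic basement membranes, measured 308 ± 16.9 CPM in E14.5 females and 213 ± 17.3 in E14.5 males, a log2 fold change of 0.53 (edgeR adjusted p 0.00654). By E16.5 it had fallen to 154 ± 5.08 CPM in females and 141 ± 25.5 in males, log2 fold changes of -1.002 and -0.59 (adjusted p 4.01e-06 and 0.000746). The sexes then overlapped. Its uterine levels were 49.5 ± 14.2 CPM in Amhr2+ and 35.9 ± 6.98 CPM in Gli1+ cells (adjusted p 0.176). Lama1 lies on chromosome 17 at 67697265 to 67822645.

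Lama2, the alpha chain of muscle and peripheral nerve basement membranes, lies on chromosome 10 at 26981285 to 27616843 and overlaps 4 genes with clone-based or model names. It measured 166, 150.4 and 153 CPM in E14.5 females and 257, 216 and 251 CPM in E14.5 males. Levels at E16.5 were 212, 213 and 195 CPM in females and 404, 522 and 463 CPM in males. The sexes overlapped at neither age. Between the sexes it differed by a log2 fold change of -0.63 at E14.5 (SE 0.0897, edgeR adjusted p 0.000488) and -1.16 at E16.5 (SE 0.0900, adjusted p 1.15e-07), with an interaction of -0.54 (adjusted p 0.0115). Lama2 rose with age by 0.40 in females (SE 0.0895, adjusted p 0.00244) and by 0.94 in males (SE 0.0896, adjusted p 1.35e-06). The groups stood in the order of their smooth muscle sums at E14.5 and E16.5, and E16.5 male replicate 1 was the lowest of its group in both. E14.5 male replicate 1 had the lowest sum of its group, 744.1 CPM, but the highest Lama2. Uterine levels were 93.2, 98.7 and 72.3 CPM in Amhr2+ and 269, 292 and 274 CPM in Gli1+ cells, and the log2 fold change was -1.66 (SE 0.112, adjusted p 4.75e-05). The uterine smooth muscle sums were 1340 to 2170 CPM in Amhr2+ and 2560 to 2630 CPM in Gli1+ cells. Their part in the Lama2 differences was not tested.

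Lama3, on chromosome 18, encodes an alpha chain known from epithelial anchoring and overlaps 2 clone-named or model genes. At E14.5 it measured 2.37, 2.43 and 2.46 CPM in females and 3.87, 3.87 and 3.79 CPM in males. At E16.5 it measured 12.6, 14.48 and 13.5 CPM in females and 7.77, 8.28 and 6.20 CPM in males. The sexes overlapped at neither age, and their order turned. Between the sexes it differed by a log2 fold change of -0.67 at E14.5 (SE 0.138, edgeR adjusted p 0.00825) and 0.87 at E16.5 (SE 0.116, adjusted p 3.41e-05), with an interaction of 1.54 (SE 0.180, adjusted p 4.51e-05). The rise with age was 2.48 in females (SE 0.132, adjusted p 1.78e-09) and 0.94 in males (SE 0.123, adjusted p 3.47e-05). Summed epithelial markers, 12 genes with none at 0, were lower in females at both ages: 38.4 to 43.8 against 54.3 to 64.3 CPM at E14.5 and 28.3 to 38.3 against 39.3 to 48.5 CPM at E16.5. In the uterus Lama3 measured 23.3, 23.7 and 20.5 CPM in Amhr2+ and 24.9, 32.0 and 22.5 CPM in Gli1+ cells, with overlap.

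Lama4, an alpha chain of vessels and mesenchyme, lies on chromosome 10 at 38965515 to 39110188. It measured 147, 146 and 158 CPM in E14.5 females and 161, 130.4 and 152 CPM in E14.5 males, which overlapped. At E16.5 it measured 343, 343 and 344 CPM in females and 213, 253 and 229 CPM in males, which did not. The rise was 1.19 in females (SE 0.0798, edgeR adjusted p 2.08e-08) and 0.65 in males (SE 0.0790, adjusted p 1.86e-05), the E16.5 sex difference 0.57 (SE 0.0786, adjusted p 5.23e-05) and the interaction 0.55 (adjusted p 0.00418). Summed endothelial markers, 10 genes with none at 0, went the other way with age, from 109 to 133 CPM over the E14.5 libraries to 72.3 to 96.5 CPM over the E16.5 libraries. In the uterus Lama4 measured 246, 261 and 196 CPM in Amhr2+ and 395, 444 and 365 CPM in Gli1+ cells, and the log2 fold change was -0.77 (SE 0.116, adjusted p 0.00256). The uterine endothelial sums stood in the same order as Lama4, with 37.2 to 42.1 CPM in Amhr2+ and 47.4 to 56.7 CPM in Gli1+ cells, and their part was not tested.

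Lama5, the widespread alpha chain of epithelial and vascular basement membranes, fell with age in females from 52.2 ± 5.23 to 28.8 ± 8.10 CPM, a log2 fold change of -0.86 (edgeR adjusted p 0.00321). In males it measured 56.2 ± 8.77 and 40.7 ± 5.19 CPM (-0.46, adjusted p 0.088), a difference that passed with DESeq2 and in fits of the compared libraries only, with and without a replicate block, at adjusted p down to 0.0184. The E16.5 sex difference of -0.50 did not pass (adjusted p 0.0623). It did with a replicate block (-0.53, adjusted p 0.00113), with DESeq2 and without E16.5 female replicate 2. That library had the highest Lama5 of its group, 37.9 CPM against 25.9 and 22.5 CPM. Its mesothelial and epithelial sums, 57.5 and 38.3 CPM, were also the highest of its group. Their part in the E16.5 difference was not tested. In the uterus Lama5 was higher in Amhr2+ cells, 106 ± 6.20 against 60.9 ± 12.7 CPM, by 0.80 (adjusted p 0.00604). Summed epithelial markers were also higher there, at 78.2 to 81.3 CPM in Amhr2+ and 37.1 to 50.8 CPM in Gli1+ cells, as Itga6 and Itga2 were. None of the 12 markers was at 0 in either group, and their part in the 3 differences was not tested.

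**Figure D5:**
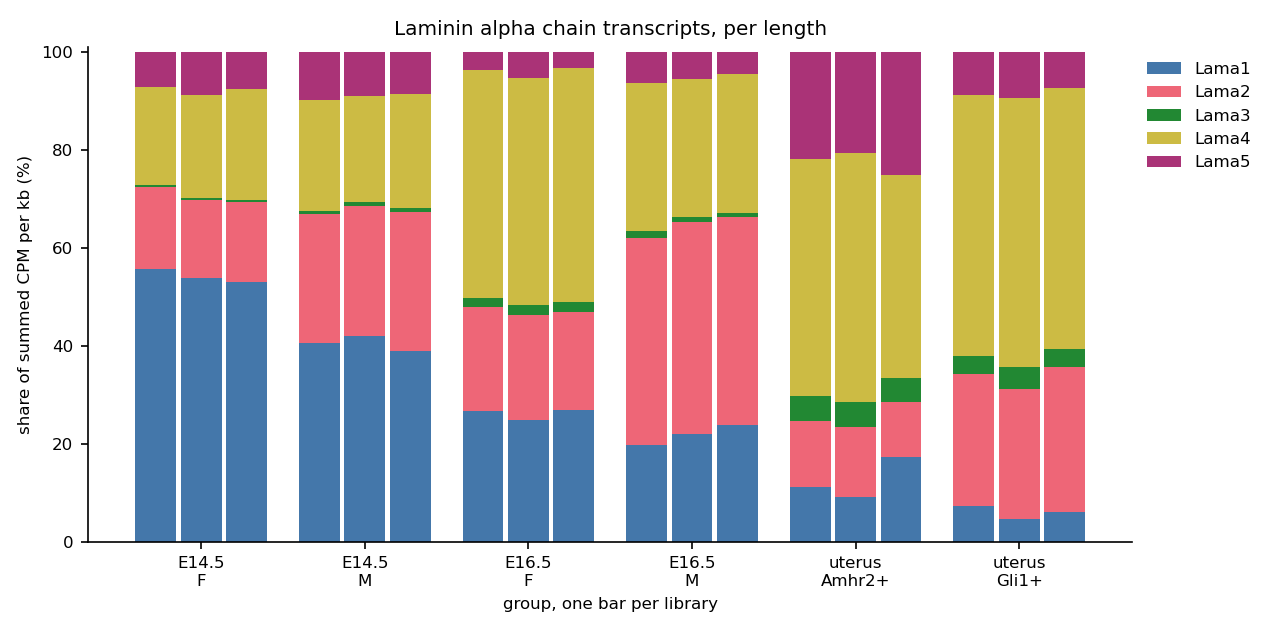
Share of each laminin alpha chain in the summed CPM per kb of the 5 chains, 1 bar per library, in percent. Lama1 takes 53.1% to 55.7% in the E14.5 female libraries, Lama4 46.2% to 47.8% in the E16.5 female libraries and Lama2 42.4% to 43.2% in the E16.5 male libraries.

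Per length, the leading alpha chain differed between groups. Lama1 held 54.2% ± 1.33 of the summed alpha chain level per length in E14.5 females and 40.5% ± 1.57 in E14.5 males. In E16.5 females Lama4 led with 46.9% ± 0.853, and Lama1 and Lama2 had 26.1% ± 1.07 and 20.8% ± 0.741. In E16.5 males Lama2 led with 42.7% ± 0.465, followed by Lama4 with 29% ± 1.12. Lama4 also led in both uterine groups, with 46.8% ± 4.86 in Amhr2+ and 53.7% ± 0.901 in Gli1+ cells. Second in Amhr2+ cells was Lama5, with 22.6% ± 2.35, and second in Gli1+ cells was Lama2, with 27.7% ± 1.65. These shares depend on the merged exon lengths, 9.68 kb for Lama1 and 16.34 kb for Lama2. Without division by length, Lama2 stood above Lama1 in E14.5 males, at 242 against 213 CPM. The same held in E16.5 females, at 207 against 154 CPM. In every group but E14.5 males the leading chain was the same without that division.

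Lamb1 and Lamb2 were the abundant beta chains. Lamb1, the common embryonic chain, was more abundant in females at E16.5, 670.3 ± 14.98 against 575 ± 5.63 CPM, by 0.22 (edgeR adjusted p 0.0152), a call lost without E16.5 female replicate 1 or 2 or male replicate 3, at adjusted p of up to 0.062. Lamb2, a chain of neuromuscular and kidney basement membranes, was higher in males at both ages, with log2 fold changes of -0.23 and -0.24 (adjusted p 0.0374 and 0.00811). It rose with age by 0.46 in females and 0.47 in males (adjusted p 3.5e-05 and 3.93e-05). In the uterus both were lower in Amhr2+ cells, Lamb1 with a log2 fold change of -0.60 (adjusted p 0.00244) and Lamb2 with -0.30 (adjusted p 0.0298). The E14.5 call of Lamb2 was lost without any 1 of 5 libraries (all but E14.5 male replicate 1), at adjusted p of up to 0.185, and its uterine call without Amhr2+ replicate 1 or 3 or Gli1+ replicate 1 or 2, at up to 0.0917. Its E14.5 call was also lost without the filter on low counts, and its uterine call when scaled by library size alone. Per length, Lamb2 held 33.4% ± 0.236 of the beta chain level in E14.5 females, 39.8% ± 2.71 in E14.5 males, 37.2% ± 0.677 in females at E16.5 and 45.0% ± 1.69 in E16.5 males.

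Lamb3, an epithelial chain that joins Lama3, lies on chromosome 1 at 193207725 to 193343878 and overlaps 6 genes, among them Hsd11b1 and G0s2. It measured 2.07, 2.83 and 2.25 CPM in E14.5 females and 3.11, 2.14 and 2.13 CPM in E14.5 males. Levels at E16.5 were 0.612, 0.566 and 1.44 CPM in females and 0.678, 0.481 and 0.953 CPM in males. The ages did not overlap in either sex, and the sexes overlapped at both ages. With age the log2 fold change was -1.44 in females (SE 0.329, edgeR adjusted p 0.00287) and -1.74 in males (SE 0.324, adjusted p 0.000997), while Lama3 rose in both sexes. Uterine levels were 0.648, 0.512 and 0.576 CPM in Amhr2+ and 0.715, 1.11 and 0.724 CPM in Gli1+ cells (-0.55, adjusted p 0.204).

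Lamc1, the gamma chain of most laminins, had fetal means of 397 to 467 CPM. It rose with age in males by 0.24 (edgeR adjusted p 0.0179), a call lost in 6 of 12 alternatives, among them E14.5 male replicate 2 or 3 or E16.5 male replicate 2 left out, at adjusted p of up to 0.165, and was lower in uterine Amhr2+ cells, 414 ± 47.8 against 682 ± 54.5 CPM (-0.72, adjusted p 0.00137). Lamc3, a gamma chain of restricted tissues, lies on chromosome 2 at 31887344 to 31946539 and overlaps a clone-named gene. It measured 20.2, 22.9 and 22.0 CPM in E14.5 females and 34.9, 30.3 and 33.6 CPM in E14.5 males. E16.5 females had 9.80, 9.83 and 9.09 CPM and E16.5 males 31.0, 40.6 and 33.1 CPM. The sexes overlapped at neither age, and the male ages overlapped. The log2 fold change between the sexes was -0.60 at E14.5 (SE 0.0976, adjusted p 0.00147) and -1.86 at E16.5 (SE 0.101, adjusted p 2.72e-09), with an interaction of -1.26 (SE 0.139, adjusted p 2.62e-05). Lamc3 fell with age in females, where its log2 fold change was -1.18 (SE 0.102, adjusted p 3.34e-07), and had 0.08 in males (adjusted p 0.572). In the uterus it measured 6.69, 6.98 and 6.20 CPM in Amhr2+ and 5.93, 5.85 and 3.86 CPM in Gli1+ cells (0.35, adjusted p 0.199).

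The nidogens parted from each other. Nid2 rose with age in females, from 454 ± 12.7 to 779 ± 39.1 CPM, by 0.78 (edgeR adjusted p 4.94e-07), while males had 413 ± 30.7 and 432 ± 25.3 CPM (0.06, adjusted p 0.554). At E16.5 Nid2 was higher in females by 0.85 (adjusted p 2.13e-07), with an interaction of 0.71 (adjusted p 0.000191). Nid1 rose with age by 0.27 in females (adjusted p 0.0114) and 0.43 in males (adjusted p 0.000606) and did not pass between the sexes. The female rise of Nid1 was lost without E14.5 female replicate 2 or E16.5 female replicate 1 or 2, at adjusted p of up to 0.057. Per length, Nid2 held 42.2% ± 1.11 of the nidogen level in E14.5 females, 40.2% ± 0.663 in E14.5 males, 50.9% ± 1.01 in females at E16.5 and 34.2% ± 1.40 in E16.5 males. In the uterus it held 22.8% ± 0.628 in Amhr2+ and 29% ± 1.14 in Gli1+ cells, where its log2 fold change was -0.35 (adjusted p 0.0189), a call lost without Amhr2+ replicate 1 or 3 or when scaled by library size alone, at adjusted p of up to 0.0629. Nid1 lies on chromosome 13 at 13437551 to 13512269 and Nid2 on chromosome 14 at 19751265 to 19811787, each overlapping a clone-named gene.

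Other genes of the pathway came from 3 lists of 67 basement membrane partners, integrin ligands and integrin adaptors, of which 60 were tested in each table. Named are up to 4 per comparison that passed, reached 10 CPM in whichever group was higher and had the largest fold changes. At E16.5, 12 of the 60 were higher in females (background 13.2%) and 25 in males (background 14.1%), with a median of -0.11 against 0.01 over all genes. Basement membrane partners made up 12 of those 25, of 21 tested. The largest was Col4a4, an alpha chain of the collagen IV network of kidney and other specialised membranes, at 6.12 ± 0.391 CPM in females, with 54.8 ± 3.97 CPM in males, for a log2 fold change of -3.16 (edgeR adjusted p 3.31e-11). Its partner chain Col4a3 had -1.81. Edil3, an Itgav ligand, had 1.57. At E14.5, 8 were higher in females (background 2.59%) and 8 in males (background 3.69%), with Tnc at -1.51, Col4a4 at -1.36, Vcam1 at 0.99 and the tenascin gene Tnxb at 0.88.

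With age, 18 of the 60 rose (background 21%) and 15 fell (background 18.6%) in females. In males 23 rose (background 13.1%) and 6 fell, a share near the background of 10.2%. Vcam1, the Itga8 ligand gene Egfl6, the collagen-binding Sparc and Tnxb rose in females by 1.88, 1.74, 1.26 and 1.24. Males had rises of 1.72 in the thrombospondin gene Thbs2, 1.43 in Col4a3, 1.34 in Col4a4 and 1.32 in Tnxb. The interaction passed for 5 in the positive (background 4.66%) and 16 in the negative direction (background 5.36%). Its largest values were -1.80 for Col4a4, 1.19 for Edil3, 1.12 for Egfl6 and -1.09 for Npnt, which encodes nephronectin, the Itga8 ligand. Npnt measured 16.8 ± 1.62 CPM in females at E16.5 and 42.7 ± 3.35 CPM in males, the opposite order to Itga8. In the uterus 3 were higher (background 10.1%) and 20 lower (background 13.7%) in Amhr2+ cells, where the split of all genes turned under library size alone, with -3.40 for Thbs2, -2.33 for Tnxb, -2.27 for Edil3 and -1.71 for Vcam1. None of the 14 tested integrin ligands of the interstitial matrix and cell surface was higher there, and 8 were lower, with a median of -0.82 against 0 over all genes.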

How the data were processed

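RNA-seq of 12 fetal and 6 uterine libraries was read from the 2 tables of raw counts per gene that the authors deposited. Per the labels' protocols, RNA was extracted with PicoPure, the TruSeq kit was non-stranded for the fetal and stranded for the uterine libraries, and replicate numbers are tied to no litter. Per the submitters' processing notes, STAR 2.5, featureCounts, Subread 1.5.0-p1, Bowtie 1.2, SAMtools 1.3.1, Picard, bedtools 2.24.0 and MACS2 2.1.1 were used with mm10, with no role stated. The annotation and strand setting of the counting are not given in the sources used here, so reads of overlapping and antisense genes cannot be told apart. The deposited ATAC-seq peak list gives positions only.

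Counts were fitted with edgeR 4.0.16 (R 4.3.3, filterByExpr, TMM, robust quasi-likelihood), the 4 fetal groups in 1 model and the uterus in another, with Benjamini-Hochberg adjustment over all genes tested and a threshold of 0.05. The standard error is the log2 fold change divided by the root of F. CPM per kb uses GENCODE vM21 exon unions, so orders and shares of different genes depend on these lengths. The scripts were tested on simulated counts with 200 changed genes. For the E16.5 sex difference 76% of changes of 1 and 93% of changes of 2 on the log2 scale were called. Of its calls 7.14% were false, above the threshold of 0.05. For the uterus these values were 66%, 86% and 10.6%. Members called, changed at least 2-fold and at 1 CPM or more in the higher group, up to 12, are given library by library. Members and lists were chosen with earlier results of these data known. Alternatives were DESeq2 1.42.0, other scalings, no filter on low counts, fits of the compared libraries only, a replicate block and leaving out each library. Same-numbered E16.5 libraries of the sexes deviated together (correlations 0.28, 0.11 and 0.40), a pairing that comes from the data and not from the labels. The other comparisons did not meet this rule.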

Additional observations from a re-analysis of the deposited data

Results flagged for a closer look

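The sex difference changed between E14.5 and E16.5 in 12 members by edgeR's test of the difference itself. Each value is the female minus male log2 fold change at E16.5 minus that at E14.5. It was -1.88 for Itga4 (adjusted p 0.000795), -1.26 for Lamc3 (2.62e-05), -1.24 for Itga1 (0.00171) and -1.09 for Itga9 (0.000119). Itga6 had -0.78 (0.00349), Lama2 -0.54 (0.0115), Itgav -0.51 (0.0133) and Itgb1 -0.38 (0.0236). Positive values were 1.54 for Lama3 (4.51e-05), 0.85 for Itga11 (0.029), 0.71 for Nid2 (0.000191) and 0.55 for Lama4 (0.00418). The calls of Itga11 and Itgb1 were lost without single libraries, at adjusted p of up to 0.0815 and 0.0728. That of Itga11 was also lost without the filter on low counts. Smooth muscle marker sums, which also differed most between the E16.5 sexes, are given beside Itga1 and Lama2, and their part was not tested.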

How the results depend on the processing

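No member changed direction after passing the test. Calls kept under all alternatives were 6 of 9 between the sexes at E14.5, 19 of 21 at E16.5, 19 of 21 with age in females, 17 of 20 in males, 10 of 12 for the interaction and 8 of 13 in the uterus. Leaving out 1 library gave counts of 6 to 8, 19 to 21, 19 to 21, 17 to 22, 10 to 15 and 8 to 15 in that order. Of all genes the main fits called 1121, 4883, 7068, 4168, 1790 and 3866. The fits without 1 library called 553 to 1678, 3618 to 5745, 5249 to 6460, 3364 to 3924, 1335 to 2687 and 1949 to 3521 genes. Requiring a 2-fold change left 0, 5, 9, 5, 5 and 2 members, against 1.49%, 7.02%, 8.97%, 6.17%, 3.62% and 6.53% of all genes. With a replicate block the counts were 11, 22, 21, 18, 13 and 15, and those of all genes 1902, 5238, 7811, 2425, 2592 and 4725. For the fetal sex and age differences that fit also held only the compared libraries, which without the block gave 11, 21, 22 and 18, so the moves at E14.5 and in males came with the choice of libraries. Of all genes these unblocked fits called 1390, 3735, 8263 and 2794. The block added Lama5 at E16.5 (-0.53, edgeR adjusted p 0.00113), which DESeq2 also called. DESeq2 called 10, 22, 21, 21, 13 and 15 members, and 1438, 4958, 6955, 4283, 2143 and 4279 of all genes. A peak within 5 kb of the start was found for 29 members, over the start for 24 and, with wide peaks only, within 1 kb for 23. These were 84.8%, 72.7% and 69.7% of tested members, against 87.8%, 65.8% and 72.1% of tested genes. With 3 libraries a group, members near the floor could not show small differences.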
